A study of Homo sapiens with 6 samples.

Results

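The 10 genes described here make up the first steps of the TGF-beta pathway. They are the ligands TGFB1, TGFB2 and TGFB3, the latent TGF-beta binding proteins LTBP1, LTBP2 and LTBP3, the signalling receptors TGFBR1 and TGFBR2, and the co-receptors TGFBR3 and ENG. They were chosen by symbol, and a gene was kept where a probe set of the array carried its symbol alone. This held for 9 of the 10 genes, out of 33458 genes with such a probe set. TGFB2 shares its probe set with another symbol and was not analysed here. Each of the 9 had 1 such probe set.

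TGF-beta is secreted in a latent form, held by its own propeptide and tethered to the matrix by LTBPs. Once released, the ligand binds the type II receptor TGFBR2, which phosphorylates the type I receptor TGFBR1, and TGFBR1 in turn phosphorylates SMAD2 and SMAD3. TGFBR3 (betaglycan) and ENG (endoglin) present ligands to these receptors. In thyroid follicular cells TGF-beta is known as an inhibitor of growth, and in carcinoma cells as an inducer of a mesenchymal state.

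The cells were TPC-1, a single cultured line that was established from papillary carcinoma of the human thyroid. The tested cells received 25 pmol of an siRNA against SMAD3 (si-SMAD3) and the others a control siRNA (si-Control), and RNA was taken 24 h later. Each group had 3 arrays, 1 from each of 3 experiments done at separate times, and both groups went through lipid transfection. No label names added TGF-beta. How many siRNA sequences stand behind each name is not stated in the labels. Values are log2 levels as deposited, and an array of such bulk RNA cannot tell fewer expressing cells from less RNA per cell.

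SMAD3, the targeted gene, was at 10.58, 10.03 and 10.27 in si-SMAD3 cells of experiments 1 to 3, against 14.20, 14.21 and 14.67 in si-Control cells. It fell by 4.06 on the log2 scale (SE 0.22, adjusted p = 0.000437 by limma's moderated test over 20590 genes). No other gene passed the adjusted threshold of 0.05, and so 0.00486% of the genes tested were called. The arrays correlated between 0.986 and 0.992 with each other. The first principal component (29.3% of the variance) set both arrays of experiment 2 apart, with scores of 39.5 in si-SMAD3 and 23.6 in si-Control. In experiments 1 and 3 the scores were -6.15 and -6.50 in si-SMAD3, against -28.1 and -22.4 in si-Control. The si-SMAD3 array thus scored higher than its control in each experiment. Of 7 thyroid markers with a singly named probe set 3 lay above the filter of 3.93, and TG, TSHR, NKX2-1 and SLC5A5 lay below. PAX8 averaged 13.59 ± 0.29 in si-SMAD3 and 13.67 ± 0.29 in si-Control cells (SD, n = 3). FOXE1 averaged 7.09 in si-SMAD3 and 6.86 in si-Control cells. DIO1 lay close to the filter, at 3.95 in si-SMAD3 and 4.35 in si-Control cells. Of 7 epithelial markers 4 lay above the filter, and EPCAM, CDH1 and CLDN4 lay below. All 4 had differences above 0 (si-SMAD3 minus si-Control), with a median of 0.17, and ranged from 0.00327 for KRT8 to 0.49 for KRT7. Over all genes tested 47.1% lay below 0. KRT7 was the only one of the 4 whose groups did not overlap, which was so for 11% of all genes tested. EPCAM, below the filter and not tested, did not overlap either, at 3.77 to 3.84 in si-SMAD3 and 3.03 to 3.20 in si-Control cells. The mean level of the 7 epithelial markers per array ran from 7.34 to 7.64 in si-SMAD3 and 7.19 to 7.47 in si-Control cells. Of the other lists, 6 of 7 fibroblast markers and 4 of 6 immune markers lay above the filter. Among the fibroblast markers LUM averaged 9.12 in si-SMAD3 and 8.85 in si-Control cells, and COL1A1 8.63 and 8.40. PDGFRB (4.15 in si-SMAD3 and 3.75 in si-Control cells) and POSTN (4.09 and 4.14) lay close to the filter. Of these immune markers only CD68 lay well above it, at 8.92 in si-SMAD3 and 8.79 in si-Control cells. PTPRC, CD14 and CSF1R had group means from 3.84 to 4.25, close to the filter. The mean level per array ran from 5.74 to 6.11 in si-SMAD3 and 5.71 to 5.78 in si-Control cells for the fibroblast markers, and from 4.61 to 4.87 in si-SMAD3 and 4.66 to 4.98 in si-Control cells for the immune markers.

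None of the 9 genes of TGF-beta supply and reception was called. By limma the adjusted p ranged from 0.805 to 0.999. Of the 9 genes, 6 lay above 0 and 3 below, and their median difference (si-SMAD3 minus si-Control) was 0.10, against 0.02 over all genes tested. TGFBR1 had the smallest p of the 9 and was lower after SMAD3 knockdown in each experiment. It was the only one of the 9 with an unadjusted p under 0.05, a mark that 5.74% of all genes tested reached. It was also the only one whose groups did not overlap, which was so for 11% of all genes. A count of 1 in 9 is thus close to the background, and the data do not set these genes apart from others.

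**Figure D1:**
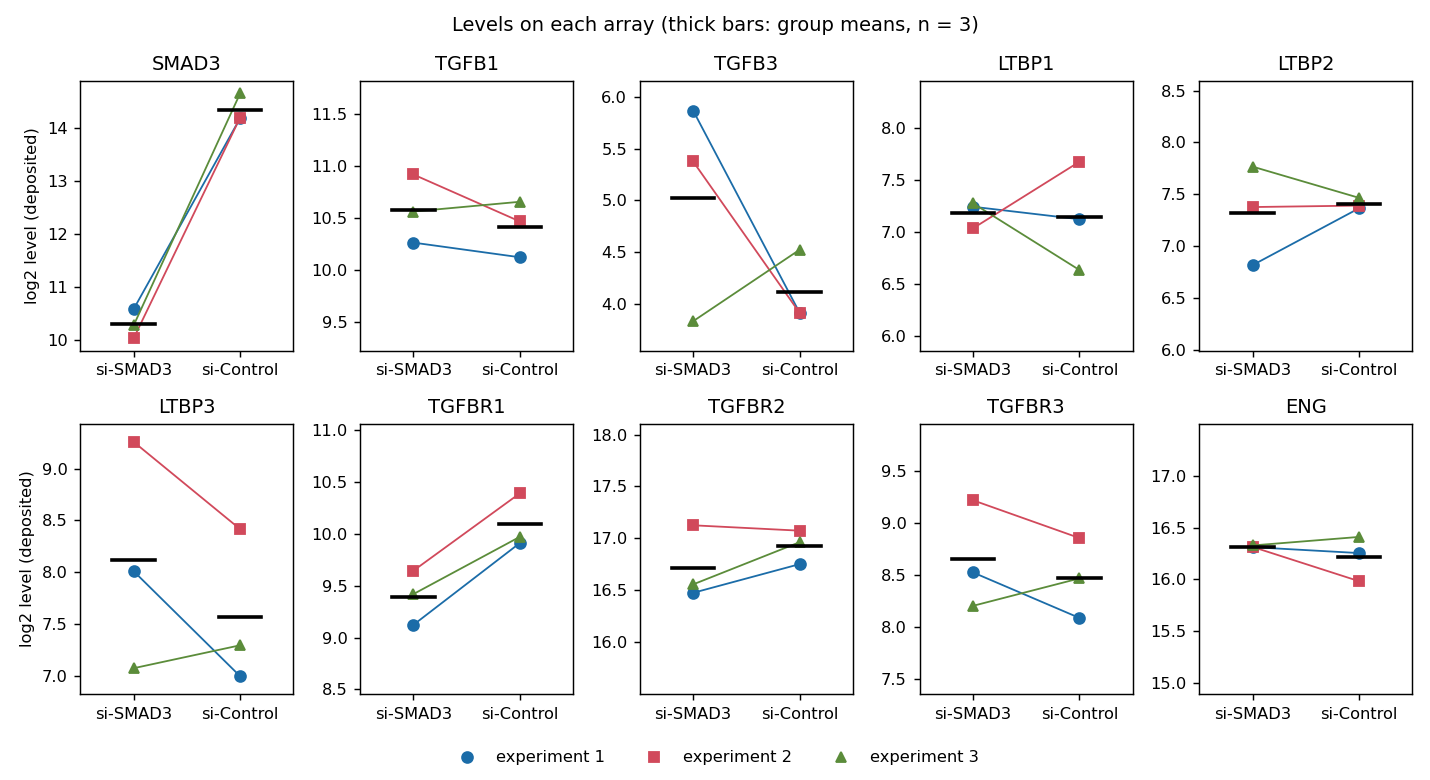
Deposited log2 level of SMAD3 and the 9 TGF-beta pathway genes on each array, with si-SMAD3 left and si-Control right; lines join arrays of the same experiment and thick bars are means of 3 arrays. SMAD3 and TGFBR1 have no overlap between groups, and both arrays of experiment 2 lie highest for LTBP3, TGFBR2 and TGFBR3.

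TGFB1 encodes the ligand most widely made by epithelial and tumour cells. Its level was 10.26, 10.92 and 10.56 in si-SMAD3 cells and 10.12, 10.47 and 10.66 in si-Control cells. The groups overlapped, and the order within an experiment turned in experiment 3. The difference was 0.17 (SE 0.23, 95% interval -0.36 to 0.70, adjusted p = 0.989 by limma).

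TGFB3 encodes the ligand known for its part in palate and lung development. It was at 5.87, 5.38 and 3.84 in si-SMAD3 cells, against 3.92, 3.92 and 4.53 in si-Control cells. It stood well above the filter only on the si-SMAD3 arrays of experiments 1 and 2, while the third si-SMAD3 array was the lowest of all 6. The si-Control values of experiments 1 and 2 lay just below the filter of 3.93, and calls of signal above background were not used here, so the size of the difference at this low level is uncertain. It was 0.91 as deposited, with an SE of 0.46 (95% interval -0.14 to 1.95, adjusted p = 0.877 by limma). Its spread within groups (0.79) was at the 99.3rd percentile of the genes tested, so the mean rests on values that disagree between experiments. Without both arrays of experiment 3 it was 1.71, and without both of experiment 1 it was 0.39, neither of them called.

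The latency proteins showed no shared direction. LTBP1, which tethers the latent complex to fibrillin and fibronectin, was at 7.24, 7.03 and 7.28 in si-SMAD3 cells, against 7.12, 7.68 and 6.63 in si-Control cells. Its differences of 0.12, -0.64 and 0.64 in experiments 1 to 3 cancelled to 0.04 (SE 0.27, 95% interval -0.56 to 0.64). LTBP2, a matrix protein of the same family that does not bind the latent complex, was at 6.82, 7.38 and 7.77 in si-SMAD3 cells and 7.37, 7.39 and 7.46 in si-Control cells. The control values lay within the range of the si-SMAD3 values, and the difference was -0.09 (SE 0.25, 95% interval -0.65 to 0.48).

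LTBP3 is the family member whose loss in humans and mice disturbs bone and teeth. It was at 8.01, 9.26 and 7.08 in si-SMAD3 cells, against 6.997, 8.42 and 7.30 in si-Control cells. It was higher after knockdown by 1.01 and 0.84 in experiments 1 and 2 and differed by -0.22 in experiment 3. The mean difference of 0.54 had an SE of 0.54 (95% interval -0.67 to 1.76, adjusted p = 0.966 by limma), since its spread within groups (0.94) was at the 99.8th percentile of the genes tested. Much of that spread followed the experiment, and with the experiment as a block the SE was 0.27, still without a call (adjusted p = 0.749 by limma). The difference was -0.03 without si-SMAD3 replicate 2 alone, and 0.40 without both arrays of experiment 2.

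TGFBR1 (ALK5), the kinase that phosphorylates SMAD3, was at 9.12, 9.64 and 9.42 in si-SMAD3 cells, against 9.91, 10.39 and 9.97 in si-Control cells. Every si-SMAD3 value lay below every si-Control value. The differences in experiments 1 to 3 were -0.79, -0.75 and -0.55, with a mean of -0.70 (SE 0.22, 95% interval -1.19 to -0.20), a 1.62-fold lower level on the deposited scale. By limma the unadjusted p was 0.0114, which ranked 290th of 20590 genes, and the adjusted p was 0.805, or 0.606 with the experiment as a block. By an exact permutation test, 2-sided, p was 0.1, and groups of 3 cannot give less. A value of the same sign in all 3 experiments was found for 27.9% of the genes tested and for 1 of the 9.

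TGFBR2, the ligand-binding kinase that starts the signal, was at 16.47, 17.13 and 16.56 in si-SMAD3 cells and 16.75, 17.07 and 16.96 in si-Control cells. The groups overlapped, with values below those of the controls in experiments 1 and 3 and a difference of 0.05 in experiment 2. The mean difference was -0.21 (SE 0.23, 95% interval -0.72 to 0.30, adjusted p = 0.974 by limma).

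The RefSeq promoter table (GRCh38.p14) holds all 9 genes. The sequences of the signalling receptors are shown because TGFBR1 and TGFBR2 are the pair through which SMAD3 is reached. Each is the 250 bases before the transcription start, taken from the window that the table lists first for the gene. The letters run 5′ to 3′ on the gene's strand, with capitals marking the SMAD element CAGAC on either strand (GTCTG on the other).
TGFBR1, chr9:99104863-99105112, plus strand: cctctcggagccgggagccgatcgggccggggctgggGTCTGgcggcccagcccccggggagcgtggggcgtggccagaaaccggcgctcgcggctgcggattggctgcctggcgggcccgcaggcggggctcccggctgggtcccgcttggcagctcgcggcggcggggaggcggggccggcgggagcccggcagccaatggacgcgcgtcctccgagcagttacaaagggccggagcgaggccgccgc
TGFBR2, chr3:30606106-30606355, plus strand: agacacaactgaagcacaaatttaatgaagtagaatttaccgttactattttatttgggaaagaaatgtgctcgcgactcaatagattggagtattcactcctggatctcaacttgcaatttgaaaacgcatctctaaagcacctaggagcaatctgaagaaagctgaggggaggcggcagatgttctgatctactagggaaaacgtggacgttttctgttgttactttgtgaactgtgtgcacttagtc

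The TGFBR1 window is 79.6% G and C and that of TGFBR2 40.8%, against a median of 58.0% over the first windows of 27305 genes. The table gives 8 start windows for TGFBR1 and 2 for TGFBR2, so neither stretch stands for all transcripts. CAGAC was found once in the TGFBR1 window, 213 bases before the start, and not in that of TGFBR2. Of the 9 genes, TGFB3, LTBP1 and TGFBR1 held it, as did 37.8% of all windows. The GC-rich SMAD element GGCGCC was found in LTBP2 alone among the 9 and in 16.1% of all windows. The AP-1 element TGANTCA was in none of the 9 and in 6.60% of all. The SP1 core GGGCGG on either strand was in 4 of the 9, with 6 copies in TGFB1, and in 42.3% of all windows. None of the 9 held TATAAA on either strand, found in 11.1% of all windows. A match here is a run of letters, and binding was not measured.

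TGFBR3 encodes betaglycan, which presents TGF-beta 2 above all. It was at 8.53, 9.22 and 8.20 in si-SMAD3 cells, against 8.09, 8.86 and 8.47 in si-Control cells. The difference was 0.44 in experiment 1, 0.36 in experiment 2 and -0.27 in experiment 3, with a mean of 0.18 (SE 0.30, 95% interval -0.50 to 0.86, adjusted p = 0.989 by limma). The 6 arrays stood in the same order for TGFBR3 as for LTBP3, an observation made after the values were seen.

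ENG encodes endoglin, a co-receptor best known from endothelial cells. It was at 16.31, 16.31 and 16.33 in si-SMAD3 cells and 16.25, 15.98 and 16.41 in si-Control cells. Its spread within groups (0.15) was the smallest of the 9, and the difference was 0.10 (SE 0.19, 95% interval -0.32 to 0.53, adjusted p = 0.989 by limma). Of 8 endothelial markers 5 (PECAM1, CDH5, KDR, TEK and CLDN5) lay below the filter, and the other 3 (VWF, TIE1 and ESAM) had group means between 4.19 and 4.53. The summed level of the 8 ran from 29.8 to 31.6 in si-SMAD3 and from 29.7 to 30.8 in si-Control cells.

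**Figure D2:**
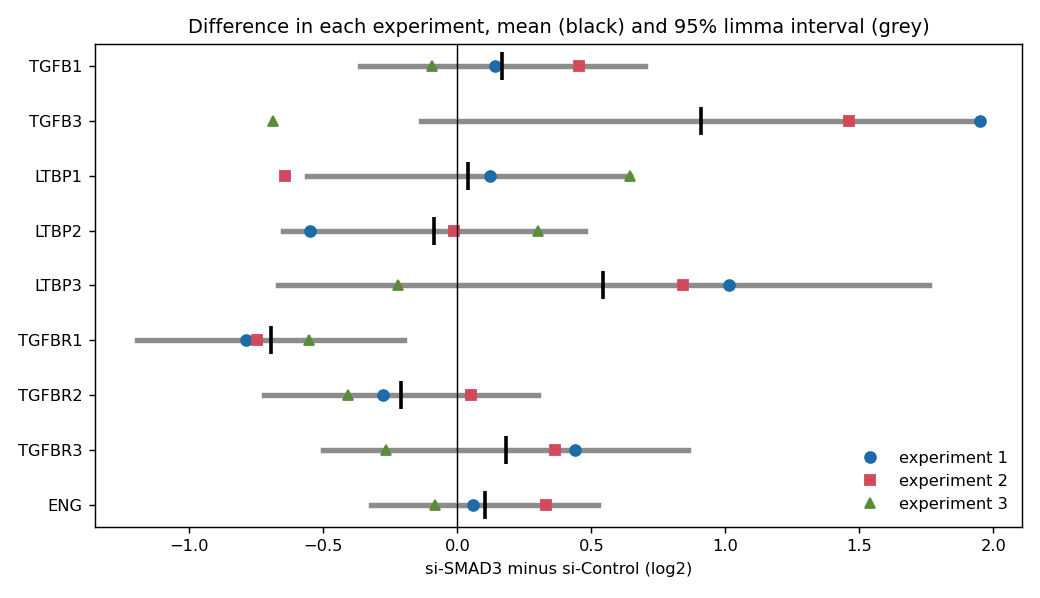
Difference in log2 level, si-SMAD3 minus si-Control, for each of the 9 genes; symbols are the 3 experiments, black ticks the means and grey bars the 95% intervals from limma. TGFBR1 alone has all 3 experiments on one side of 0 and an interval (-1.19 to -0.20) that leaves out 0.

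Experiments 1 and 2 differed from experiment 3 in direction for most of these genes. Of the 9, 6 lay above 0 in experiment 1 and 6 in experiment 2, but 2 in experiment 3, where LTBP1 and LTBP2 were the ones above 0. TGFB1, TGFB3, LTBP3, TGFBR3 and ENG were above 0 in experiments 1 and 2 and below 0 in experiment 3. Over all genes tested 54.1%, 57.0% and 42.5% lay above 0 in experiments 1 to 3, so the turn in experiment 3 was seen in the whole table too. Its part in the values of the 9 genes was not tested.

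The experiment held a larger share of the variation than the siRNA in 7 of the 9 genes, as it did in 71.7% of all genes tested. For each gene the sum of squares over the 6 arrays was split into a part that follows the siRNA, a part that follows the experiment and the rest. The split is uneven, since 3 experiments take up more of the sum than the siRNA groups even in values without any effect. A larger share for the experiment is therefore no sign by itself that it outweighed the siRNA. The shares are given beside those of all genes for that reason. The experiment held 77.7% for TGFBR3, 77.5% for LTBP3, 71.1% for TGFB1 and 67.1% for TGFBR2, against a median of 40.8% over all genes tested. It held 58.5% for LTBP2 and 45.3% for ENG, and less than that median for LTBP1 (27.7%), TGFBR1 (25.7%) and TGFB3 (14.0%). The siRNA held 72.7% for TGFBR1 and 33.1% for TGFB3, and 17.9% or less for the other 7, with a median over all genes of 12.3%. For SMAD3 it held 98.8%. Of the 9 genes, 6 had their highest experiment mean in experiment 2, the one that stood apart on the first principal component, as did 36.5% of all genes. The mean of both arrays was 8.31, 9.04 and 8.34 in experiments 1 to 3 for TGFBR3, and 16.61, 17.10 and 16.76 for TGFBR2. Without both arrays of experiment 2 the difference of TGFBR1 was -0.67 and that of TGFBR2 -0.34, and no gene of the 9 was called (adjusted p by limma of 0.730 and 0.810).

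**Figure D3:**
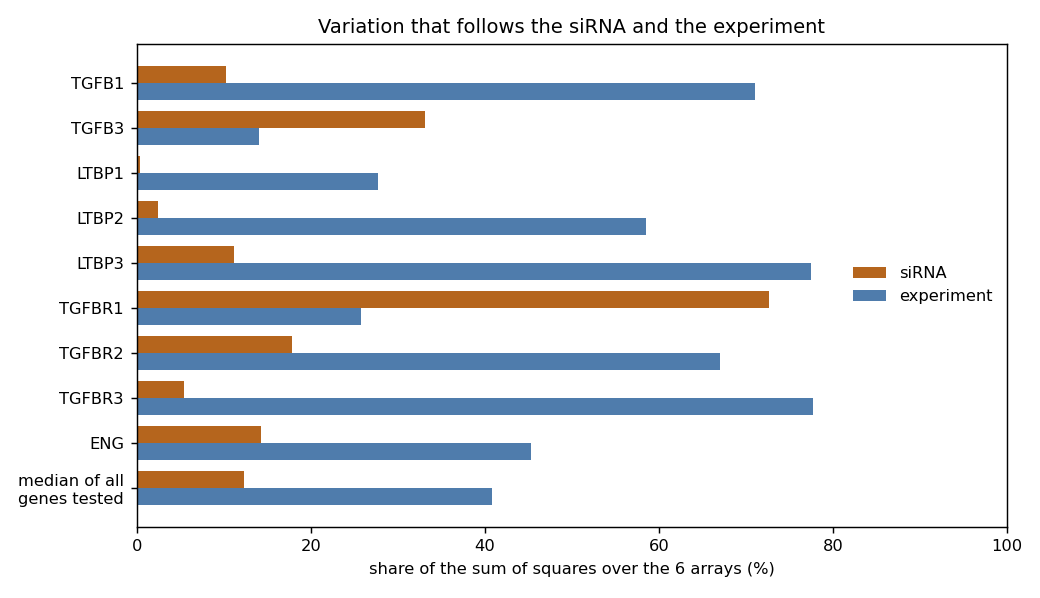
Share of the sum of squares over the 6 arrays, in percent, that follows the siRNA or the experiment, for the 9 genes and as the median of all genes tested; the rest of each sum is not drawn. The siRNA share is the larger one for TGFBR1 (72.7%) and TGFB3 (33.1%) only. The split by itself gives the experiment more of the sum than the siRNA.

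The genes most like 3 of the members over the 6 arrays were named by Pearson's correlation. For TGFBR1 these were HMGB3P3 (0.989), FBXO10 (0.987) and NXPE3 (0.986). For TGFBR2 they were FHOD3 (0.993), UNC93B8 (0.991) and TPI1 (0.990). For TGFB1 they were C2CD2 (0.997), UBB (0.997) and RAB3D (0.995). Each set is the top 3 among the 20590 genes tested, over 6 arrays that share their experiments, and is a description without a test. HMGB3P3 and UNC93B8 are pseudogenes whose probe sets can take signal from related genes.

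Around the 9 genes, a list on the latency and activation of TGF-beta had no called gene. The list was not split by the direction in which its genes act on TGF-beta. Of 24 listed 19 were tested, 8 lay above and 11 below 0, and the median difference was -0.05. HTRA1, a secreted serine protease, was at 13.17 ± 0.60 in si-SMAD3 and 12.49 ± 0.24 in si-Control cells (SD, n = 3), a difference of 0.69 (SE 0.30, adjusted p = 0.861 by limma) and the only one of the 19 with an unadjusted p under 0.05. FURIN, which cleaves the TGF-beta precursor, differed by 0.42 (SE 0.32), and ITGB6, a chain of an integrin that frees TGF-beta, by 0.24 (SE 0.18). Outside the rule that named these genes, the activator THBS1 differed by -0.58 (SE 0.64, adjusted p = 0.979 by limma). It was lower in each experiment, by -0.47, -0.59 and -0.69 in experiments 1 to 3, a shared sign found for 27.9% of the genes tested. Within the same list ITGB5, MMP2, MMP9 and DCN were also lower in each experiment, while HTRA1, ITGB6 and ITGB8 were higher in each. The SE of THBS1 takes in shifts between experiments that both groups share. ITGAV, the integrin chain that partners ITGB6 and ITGB8, differed by -0.07 (SE 0.18).

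Of 24 receptor partners and regulators 22 were tested, 14 lay above and 8 below 0, and the median was 0.03. None was called, and 4 of the 22 had an unadjusted p under 0.05, against 5.74% of all genes tested. The groups did not overlap for the same 4 genes and for no other of the 22, against 11% of all genes. Both counts rest on the same values. The list was chosen with earlier results of these data known, so neither count is a test of it. SMURF2, a ubiquitin ligase that marks the receptor complex for degradation, averaged 11.46 ± 0.11 in si-SMAD3 and 12.12 ± 0.17 in si-Control cells (SD, n = 3). Its difference was -0.66 (SE 0.19, adjusted p = 0.759 by limma). BMPR2, the type II receptor for BMPs, averaged 10.62 ± 0.29 in si-SMAD3 and 11.37 ± 0.21 in si-Control cells (SD, n = 3). It differed by -0.75 (SE 0.22, adjusted p = 0.760 by limma). USP11, a deubiquitinase reported to act on TGFBR1, averaged 12.03 ± 0.18 in si-SMAD3 and 11.55 ± 0.12 in si-Control cells (SD, n = 3), a difference of 0.48 (SE 0.19, adjusted p = 0.860 by limma). The fourth, outside the naming rule, was the pseudoreceptor BAMBI with a difference of 0.57 (SE 0.23).

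Of 14 direct targets of TGF-beta signalling 12 were tested, 8 lay above and 4 below 0, and the median was 0.08. None had an unadjusted p under 0.05 by limma, and none was called. The cell cycle inhibitor CDKN1A differed by 0.68 (SE 0.37), the corepressor gene TGIF1 by -0.25 (SE 0.19) and the collagen gene COL1A1 by 0.23 (SE 0.28).

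**Figure D4:**
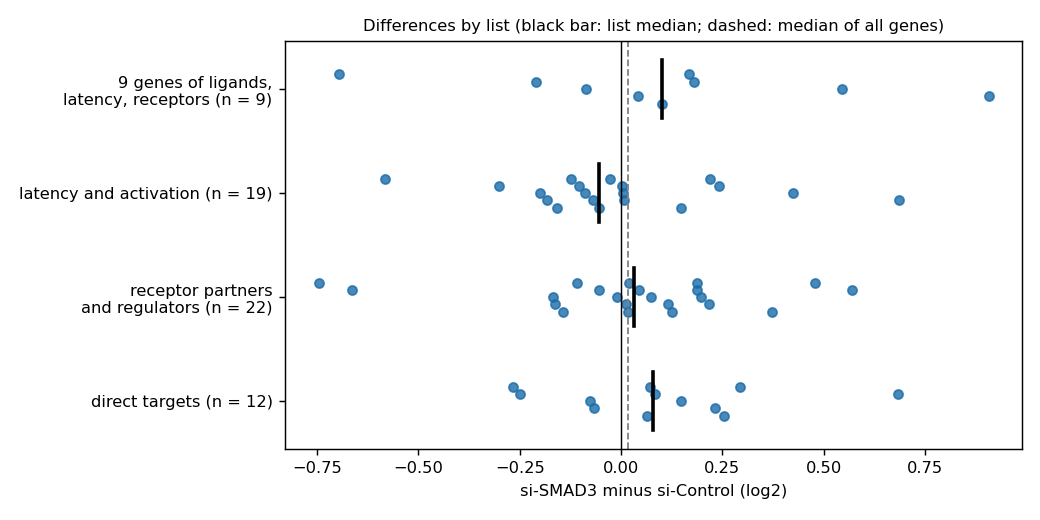
Difference in log2 level, si-SMAD3 minus si-Control, of each tested gene in 4 lists; each point is a gene, black bars are list medians and the dashed line is the median of all genes tested (0.02). The list medians lie between -0.05 and 0.10, and each list has genes on both sides of 0.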

How the data were processed

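RNA of 6 TPC-1 cultures was measured on Affymetrix whole-transcript arrays. The deposited values are on the log2 scale, and the submitters' processing notes name RMA and Affymetrix Expression Console as the authors' tools. Their versions, the annotation and the build of the genome are not stated there. The arrays' medians lay between 3.94 and 3.96. All arrays reach a ceiling of 19.93, and whether another step followed RMA is unknown, so differences are on the deposited scale. The number of arrays limits the precision.

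Of 138745 probe sets, 36176 carry 1 gene symbol in the platform's annotation, 1119 several, and 101450 are not listed there. Symbols were updated with a RefSeq table of GRCh38.p14 through the Entrez ID (25516), the symbol (9899) or a synonym (623), and 138 were kept. A gene was represented by its brightest singly named probe set. Genes with a mean below 3.93, the median over all probe sets, were left out, which left 20590 of 33458. Among these, 17 reached the ceiling and 15 were constant.

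The test was limma's moderated test (limma 3.58.1, R 4.3.3; lmFit and eBayes), 2-sided, with Benjamini-Hochberg adjustment over all genes tested, a threshold of 0.05 and no further term. It was tried on simulated data with independent noise, no shifts between experiments and large added differences. That setting does not speak for differences as small as those of the 9 members. The members and lists were chosen with earlier results of these data known. The named genes are SMAD3, the 9 members, the 3 genes with the smallest p in each pathway list, and the 3 genes most correlated with TGFBR1, TGFBR2 and TGFB1. The lists cover latency and activation, receptor partners and regulators, direct targets, and markers of thyroid, epithelial, endothelial, fibroblast and immune cells. The thyroid, epithelial, fibroblast and immune lists had 0 called genes and served to check the cell type.

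The series' design text ties the replicate number to separate experiments. Across genes, the deviation from the group mean correlated between same-numbered arrays at 0.15, 0.22 and 0.05 for replicates 1 to 3, against -0.18 to 0.06 for other pairs, and the pairing rests on that text. The p-values of the main test set each difference against the spread of arrays within a group, which includes shifts that both groups of an experiment share. Only the alternative with the experiment as a block takes those shifts out. Either way they cover 3 experiments in 1 line. Alternatives changed the block, the filter, the prior, the scaling, the probe sets and the arrays used.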

Additional observations from a re-analysis of the deposited data

How the results depend on the processing

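No gene of the 9 was called under any of the 19 alternatives run, of which 4, chosen after seeing the data, left out the genes at the ceiling or both arrays of 1 experiment. Under these settings 0 to 2 of the 9 had an unadjusted p under 0.05. TGFBR1 was below 0 in every setting (-0.82 to -0.55, adjusted p by limma of 0.606 or above), as was TGFBR2 (-0.41 to -0.09). TGFB3 was above 0 in the 18 settings that tested it (0.39 to 1.71); the stricter filter left it out. When arrays or whole experiments were left out, the difference ran from -0.00208 to 0.33 for TGFB1 and from -0.26 to 0.38 for LTBP1. It ran from -0.31 to 0.16 for LTBP2 and from -0.0267 to 1.06 for LTBP3. For TGFBR3 it ran from -0.11 to 0.40 and for ENG from -0.0145 to 0.20. The sign of these 6 genes thus turned in some of these settings, and the other settings kept it. Leaving out a single array keeps its experiment in 1 group only, so a shift that both groups share enters the difference. With both arrays of an experiment left out, the sign turned for LTBP1, LTBP2 and ENG only. TGFB1 then ran from 0.02 to 0.30, LTBP3 from 0.31 to 0.93 and TGFBR3 from 0.05 to 0.40. With the replicate block no member's call changed, and SMAD3 kept its difference of -4.06 (adjusted p = 0.00591 by limma). The count of called genes was 5 with an intensity trend and robust prior (SMAD3, BEX3, FERMT2, PRKAA1 and VAMP7), 3 with each array centred on its median (SMAD3, BEX3 and VAMP7), and 0 with an unmoderated statistic, which gave 1133 genes at an unadjusted p under 0.05 and an adjusted p of 0.547 for SMAD3 (difference -4.06). With arrays left out it was 0 to 1. It was 0 without both arrays of experiment 3, where SMAD3 had an adjusted p of 0.0762 by limma and 1005 genes an unadjusted p under 0.05. The difference of SMAD3 ran from -4.29 to -3.90 over these. The cause of these changes was not tested.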
